A study of Mus musculus with 12 samples.

Results

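Transcripts that GENCODE M21 annotates as targets of nonsense-mediated decay (NMD) were followed in differentiated cultures of the stromal vascular fraction of fat. Total RNA (input) and RNA from pooled polysomes were measured. Of the 117135 transcripts listed for each library, 7181 carry this annotation, matched by transcript identifier without its version, and they belong to 4572 genes. The annotation was the only criterion, so no measured value chose the members. Of these genes 4482 also have a protein-coding transcript, and the 16108 coding transcripts of the same genes served as the comparison.

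The cells were the stromal vascular fraction of epididymal fat from male 12-week-old Lepob/Lepob mice, which lack leptin. All groups were differentiated with an adipogenic cocktail and then insulin, in the presence of 1 µM rosiglitazone (Rosi, an agonist of PPARγ, the main transcription factor of fat cell differentiation) or of the DMSO vehicle (Veh), and were collected at day 4. All groups also received 100 µg/ml cycloheximide, which arrests elongating ribosomes, for the last 5 min. Polysome libraries came from sucrose gradient fractions with more than 3 ribosomes per mRNA. There were 3 libraries each of input Rosi, polysome Rosi and polysome Veh, and 2 distinct ones of input Veh, because the deposited values of input Veh replicates 2 and 3 were identical and were counted as 1.

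NMD is a surveillance pathway coupled to translation. When a ribosome terminates well upstream of an exon junction, the exon junction complex left there by splicing recruits the UPF and SMG proteins, and the mRNA is cut, decapped and degraded. Many RNA-binding proteins use it to limit their own synthesis, through "poison" exons that bring a premature stop codon, and a stop more than about 50 bases before the last junction is the common annotation rule.

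The members had this structure. An annotated stop lay more than 50 bases before the last junction in 7141 of the 7179 members with a stop (99.5%). Among coding transcripts of the same genes with an annotated stop it did so in 103 of 12303 (0.84%). The median member had 303 coding bases and 3 junctions after its stop, against a median of 999 coding bases in the coding transcripts of the same genes. That median covers all 16108 of them, also those without an annotated stop. In 4138 members (57.6%) the stop fell within an exon that a coding transcript also translates, and in 2332 (32.5%) it fell in sequence that no coding transcript of the gene contains. Members resemble their coding partners closely. The median member had only 29 bases of its own, and 182 members had neither 50 own bases nor a junction of their own, so their level rests on how Salmon, the quantification program, divided reads among isoforms.

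The stop codons of 9 members described below are given here, with those of Srsf3 and Tra2b as poison exon members that were not called. Each line gives the member's annotated stop codon in capitals with 13 bases of the spliced transcript on either side (5′ to 3′, GENCODE M21 on GRCm38), and the position of the stop codon follows the sequences.
Rpsa ENSMUST00000217356: ctgggaccttcacTAAccagatccaagca
Serf2 ENSMUST00000148575: tgggcggaagctgTGAgggttgccggaag
Fbxo11 ENSMUST00000135639: tgacatttatgcaTGAaaaggggcaagga
Gpi1 ENSMUST00000205870: caaggcaccaagaTGAtaccctgtgactt
Gusb ENSMUST00000201801: aggacacaagcttTGActtcttcaactat
Itgb1 ENSMUST00000124826: cagaagtttacatTAAaattcaagagggc
Pnpla2 ENSMUST00000026583: gcagctagaacaaTGAcaggttgcctact
Srsf3 ENSMUST00000037776: tctcaccaccctcTGAatctgcattagcc
Tra2b ENSMUST00000162413: gctcaggaataagTGAagctgaaatttga
The stop codon of Rpsa lies at chr9:120130192-120130194 on the plus strand, in exon 4 of 7. That of Serf2 lies at chr2:121457073-121457075 (plus), in exon 3 of 6, within 556 bases that no coding transcript of the gene shares. The others lie at chr17:87997631-87997633 for Fbxo11 (minus, exon 4 of 12), chr7:34205633-34205635 for Gpi1 (minus, exon 4 of 8), chr5:130000031-130000033 for Gusb (minus, exon 3 of 11) and chr8:128713229-128713231 for Itgb1 (plus, exon 4 of 15). Pnpla2 has its stop at chr7:141456591-141456593 (plus, exon 2 of 10), after 210 coding bases where the longest coding transcript of the gene has 1458. The stops of Srsf3 (chr17:29039485-29039487, plus, exon 4 of 7) and Tra2b (chr16:22259181-22259183, minus, exon 2 of 10) lie in own sequence of 456 and 276 bases, the type of exon described above as poison exons.

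Library depth was 17.4 to 24.0 M estimated reads (M, mega). All 6 adipocyte markers were measured, and their summed level was 279 to 288 CPM (the read count scaled to library size) in input Veh and 889 to 1100 in input Rosi. The cultures were mixed, with summed macrophage markers of 8750 to 18300 CPM and progenitor markers of 2290 to 6240 CPM, while endothelial markers stayed at or below 18.7 CPM and lymphocyte markers below 1 CPM. Because bulk RNA was measured, fewer cells of a type and less RNA per cell cannot be told apart. Polysome libraries had fewer progenitor (2290 to 3060 CPM) and smooth muscle reads (7340 to 8850) than input (4920 to 6240 and 9740 to 11200), and the part of cell makeup in the differences below was not tested.

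NMD-annotated transcripts took up little of each library, and a little more of polysomes than of input. Their share of reads was 1.22 and 1.26% in input Veh, 1.28, 1.29 and 1.27% in input Rosi, 1.47, 1.43 and 1.44% in polysome Veh, and 1.46, 1.46 and 1.5% in polysome Rosi. All 6 polysome libraries lay above all 5 input libraries. Among reads of genes with both kinds of transcript, members accounted for 5.24% ± 0.139 (SD, n = 2) in input Veh, 5.37% ± 0.0701 (n = 3) in input Rosi, 6.02% ± 0.0579 (n = 3) in polysome Veh and 6.06% ± 0.12 (n = 3) in polysome Rosi. By reads, the Rosi and Veh libraries of a fraction were thus closer to each other than the fractions were.

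The size of this difference depended on the scale and on a few abundant genes. In TPM, which scales reads by transcript length and library, the same-gene share was 6.89% in input Veh, 7.07% in input Rosi, 7.35% in polysome Veh and 7.23% in polysome Rosi, and polysome Rosi replicate 2 (7.1%) lay below input Rosi replicate 1 (7.18%). On this scale the mean of input Rosi was no closer to that of input Veh than to that of polysome Rosi. The 10 genes with most member reads (among them Rpsa, Rpl13a, Serpinf1, Prdx6, Ostf1 and Flna) made the difference smaller as a group. Without them the share of reads was 4.19 to 4.5% in input and 5.21 to 5.45% in polysomes, and that of TPM 5.25 to 5.48% and 5.99 to 6.29%, with no overlap on either scale.

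**Figure D1:**
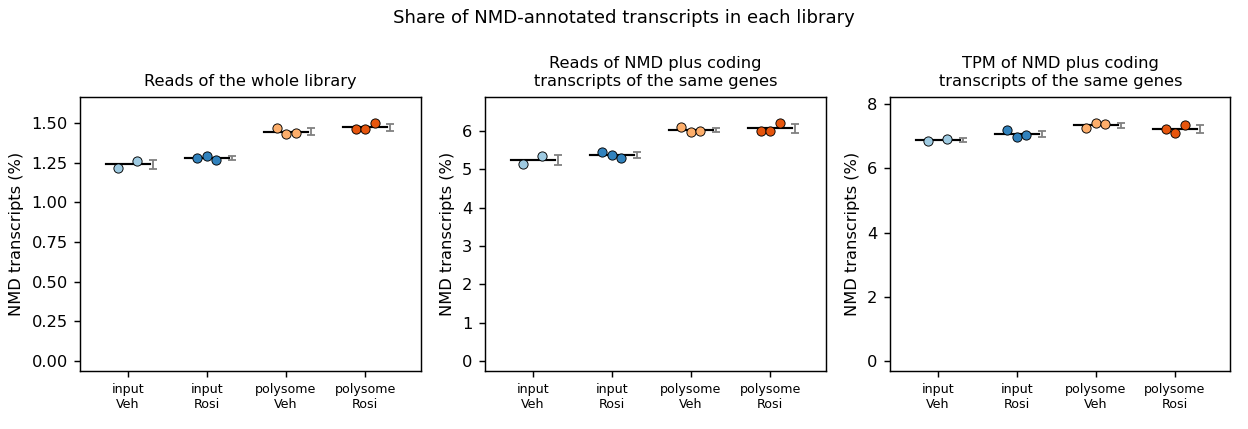
Share of NMD-annotated transcripts in each library, as a percentage of all reads, of the reads of genes with both kinds of transcript, and of their TPM (points, libraries; black line, mean; grey bar, SD). On both read scales every polysome library sits above every input library, and on the TPM scale polysome Rosi replicate 2 (7.1%) lies below input Rosi replicate 1 (7.18%).

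Expression was concentrated in few members. Of the 7181, 1825 had no read in any of the 11 libraries and 1273 had a mean TPM of at least 1. Among 3626 genes with at least 110 reads, the median gene had 1.1% of its reads in members, 1769 genes (48.8%) had under 1%, and 168 genes (4.63%) had over 50%. Members with a TPM of at least 10 numbered 251 to 263 in the input libraries and 287 to 315 in the polysome libraries.

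Among the 10 most abundant members were transcripts of Rpl13a, Eef1b2, Serpinf1, Rpsa, Prdx6, Ostf1, Ndufa3 and Serf2. The Rpl13a member ENSMUST00000210967 (large ribosomal subunit) had a TPM of 939 and 1170 in input Veh and of 718, 622 and 601 in polysome Veh, and made up 10.5 to 13% of the TPM of itself and the coding transcripts. The Eef1b2 member ENSMUST00000135877, of a subunit of elongation factor 1, had 55.3 to 63.1% of that sum in every library. For Prdx6, a peroxidase that protects lipids from oxidation, the member ENSMUST00000192639 had 58.3 to 58.9% in input and 62.8 to 68% in polysomes. The latter pair were thus major isoforms of their genes as Salmon estimated them.

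To ask whether members are found in polysomes to the same extent as other transcripts, polysome and input were compared transcript by transcript with edgeR's quasi-likelihood test, in 1 fit of all 4 groups. Calls required a Benjamini-Hochberg adjusted p under 0.05 together with a log2 fold change beyond 1 in either direction. In Veh, 61 of the 2418 members tested were higher in polysomes (2.52%) and 22 were lower (0.91%), where 2.56% of all transcripts tested were called higher and 3.76% lower. In Rosi, 97 were higher (4.01%) and 39 lower (1.61%), against 4.28% and 3.35% of all transcripts. Over the members tested as a whole, the share called higher was thus near that of all transcripts. The share called lower was below it, also below the 4.45% in Veh and 3.61% in Rosi of the coding transcripts of the same genes. Without polysome Veh replicate 1 the 83 calls in Veh became 54. Of the called members, 19 of 83 in Veh and 17 of 136 in Rosi had no read in any library of a compared group. Those members passed the count filter through libraries of other groups only. Members were also less often at an unadjusted p under 0.05 in Veh (15.2%, against 28.9% of all transcripts), and 1185 of those tested had a mean TPM under 1.

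The median log2 fold change of the members was 0.23 in Veh and 0.13 in Rosi, while that of the coding transcripts of the same genes was 0.02 and 0.01. Without a filter on low counts the members' median was 0.01 in Veh and 0.00 in Rosi. By expression, the 1185 members with a mean TPM under 1 had a median of 0.17 in Veh and -0.03 in Rosi, against 0.00 and -0.10 for coding transcripts at that level. At a TPM of 1 to 10 the medians were 0.25 and 0.20 for 954 members, against 0.01 and 0.02. For the 279 members with a mean TPM of at least 10 the median was 0.35 in Veh and 0.39 in Rosi, and for the 2175 coding transcripts at that level it was 0.04 and 0.06. Of these 279 members, 18 were called higher and 4 lower in Veh, and 39 higher and 10 lower in Rosi. Of the 2175 coding transcripts at that level, 109 were called higher and 158 lower in Veh, and 154 higher and 105 lower in Rosi. As a share of those tested, members at this level were called higher more often than coding transcripts, most clearly in Rosi. They were called lower less often, most clearly in Veh. The difference between these shares was not tested.

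The fold changes went with coding length in both kinds of transcript. Members with under 300 coding bases had a median log2 fold change of 0.40 in Veh (n = 1071) and coding transcripts of that length 0.34 (n = 312). At 300 to under 600 bases the medians were 0.28 and 0.30, and at 600 to under 1200 bases 0.00 and 0.14. At 1200 bases or more they were 0.00 for members and -0.14 for coding transcripts. In Rosi the members' medians were 0.31, 0.11, -0.05 and -0.33 over the same lengths, and those of coding transcripts 0.47, 0.35, 0.13 and -0.21. Within a class of coding length members lay above the coding transcripts in 2 of 4 classes in Veh and in none in Rosi. By length of the whole transcript they lay above in all 4 classes in Veh, with medians of 0.25, 0.27, 0.30 and 0.02 against 0.15, 0.07, -0.04 and 0.00, for under 1000, 1000 to under 2000, 2000 to under 4000, and 4000 bases or more. In Rosi they lay above in 2 of these 4 (0.22, 0.27, 0.11 and -0.17 against 0.23, 0.10, -0.09 and -0.08). Coding transcripts without an annotated stop were included in these classes at their annotated length. The part of length in the members' overall median was not tested.

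**Figure D2:**
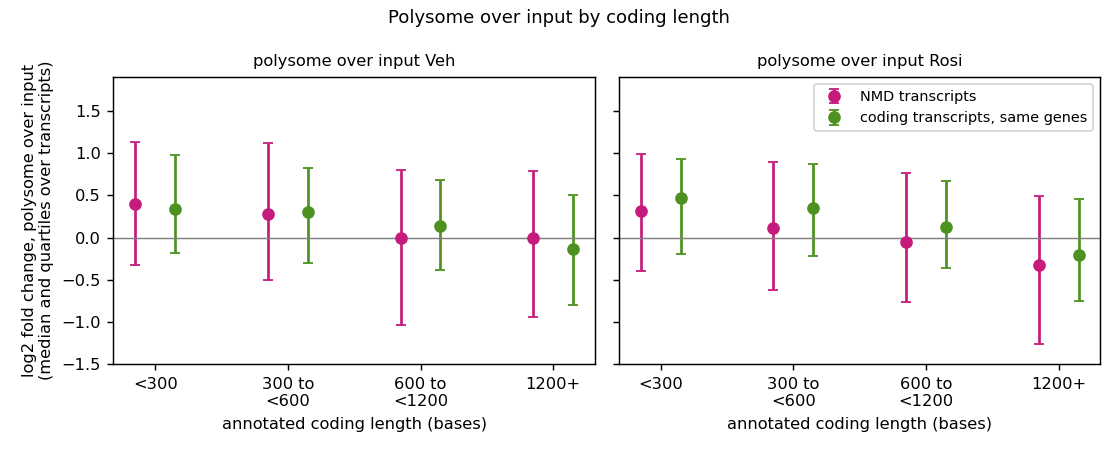
Log2 fold change of polysome over input by annotated coding length, for NMD-annotated transcripts and for coding transcripts of the same genes in Veh and Rosi (points, medians over transcripts; bars, quartiles). Both kinds fall with coding length, from medians of 0.31 to 0.47 below 300 bases to between -0.33 and 0.00 from 1200 bases on, and the quartiles overlap throughout.

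The medians were close in the 3 largest classes of stop position and differed in the small ones. Members whose stop fell in a shared coding exon had a median of 0.25 in Veh and 0.15 in Rosi (n = 1431), and those with the stop in their own sequence 0.23 and 0.13 (n = 728). Members that end at the stop codon of a coding transcript, and so differ in what follows it, had 0.16 and 0.08 (n = 190). Those with the stop in a shared untranslated part had 0.63 and 0.17 (n = 40), and those in genes without a coding transcript -0.02 and -0.51 (n = 28). Members with the start codon of a coding transcript had 0.28 and 0.11 (n = 1857), and the others 0.13 and 0.23 (n = 533).

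Veh and Rosi share no library in this comparison, although the spread was estimated jointly. Of the 83 members called in Veh and the 136 called in Rosi, 46 were called in both (55.4% and 33.8% of the lists), all 46 in the same direction, 34 higher and 12 lower in polysomes. Over all transcripts 1254 were called in both (56.8% of the calls in Veh and 47.1% of those in Rosi), 99.8% of them in the same direction. Of the 46 members called in both, 41 had over 3 reads in every group. The calls of 12 of the 46 members held in both treatments under all 19 alternative settings, including each library left out in turn. Of these 12, 11 had over 3 reads in every group. Fbxo11, with 0 reads in all 5 input libraries, passed the count filter through its polysome reads alone. The 12 were Bclaf1, Fbxo11, Lilr4b (ENSMUST00000219960), Lilrb4a, Otud6b, Sat1 and Tyw5, which were higher, and Bmp1, Ftl1, Hspa5, Rpsa and Uggt1, which were lower. Apart from Rpsa, Fbxo11, Bmp1, Ftl1 and Uggt1, they were named after their values were seen.

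Among the members that were higher in polysomes, Otud6b (ENSMUST00000151012), of a deubiquitinating enzyme, rose alike in both treatments. Its TPM was 3.49 and 2.4 in input Veh, 2.47, 2.61 and 3.52 in input Rosi, 12.5, 10.3 and 12.1 in polysome Veh, and 10.8, 8.84 and 11.8 in polysome Rosi. The fractions did not overlap, and the log2 fold change was 1.94 ± 0.22 (SE) in Veh (adjusted p = 0.000598) and 1.92 ± 0.19 in Rosi (adjusted p = 0.000234). Its share of the TPM of itself and the coding transcripts was 11.4 to 15.4% in input and 18.6 to 24.5% in polysomes. The Bclaf1 member ENSMUST00000191438, of a nuclear RNA-processing protein, had a TPM of 0.722 and 0.987 in input Veh and of 6.18, 5.69 and 5.37 in polysome Veh (log2 fold change 2.68 ± 0.32, adjusted p = 0.000739). In Rosi its TPM was 2.11, 1.44 and 1.85 in input and 6.21, 3.82 and 4.79 in polysomes (1.49 ± 0.26, adjusted p = 0.0034). Its share rose with its level, from 5.24 to 14.5% in input to 22.2 to 31.4% in polysomes, although usage, tested below, did not pass the threshold for it.

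Sat1 encodes the enzyme that acetylates spermidine and spermine, and its mRNA is known for poison exon splicing. Its member ENSMUST00000152463 had a TPM of 12.1 to 17.6 in the 5 input libraries and of 29.9 to 40.1 in the 6 polysome libraries (log2 fold change 1.23 ± 0.16 in Veh and 1.12 ± 0.14 in Rosi, adjusted p = 0.00109 and 0.000584). Its share was 2.66 to 4.33% in input and 3.13 to 4.29% in polysomes, so the coding transcripts shifted by a similar amount. The related leukocyte receptor genes Lilr4b and Lilrb4a, whose reads may be split between near-identical copies, had members at 21.9 to 28.9 and 6.17 to 9.29 TPM in input and at 54 to 70.6 and 16.5 to 33.2 TPM in polysomes. Summed macrophage markers were 12100 to 13500 CPM in input Veh and 12900 to 18300 in polysome Veh, and 8750 to 9700 in input Rosi and 11800 to 15500 in polysome Rosi. The part of this in the receptor transcripts was not tested. Tyw5, which modifies transfer RNA, had a member with a log2 fold change of 1.36 ± 0.22 in Veh and 1.37 ± 0.19 in Rosi (adjusted p = 0.00338 and 0.00116).

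The Serf2 member was the only 1 of the 10 most abundant that was called higher. Serf2 encodes a small protein that modifies protein aggregation. TPM of ENSMUST00000148575 was 101 and 111 in input Veh, 133, 107 and 117 in input Rosi, 238, 269 and 231 in polysome Veh, and 216, 227 and 280 in polysome Rosi. The fractions did not overlap, with a log2 fold change of 1.15 ± 0.18 in Veh (adjusted p = 0.00242) and 1.07 ± 0.15 in Rosi (adjusted p = 0.00129). In Rosi the change was at or under the threshold of 1 without polysome Rosi replicate 3 (0.90) or input Rosi replicate 2 (0.95) or 3 (1.00). The Ostf1 member ENSMUST00000236728, of an adaptor protein first found in osteoclasts, shifted in the same direction with a log2 fold change of 0.65 ± 0.09 in Veh and 0.85 ± 0.08 in Rosi (adjusted p = 0.00148 and 0.000191), below the threshold on size.

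The clearest members lower in polysomes belonged to genes whose coding transcripts were lower too. The Rpsa member, of a small ribosomal subunit protein, had a TPM of 522 and 522 in input Veh, 644, 587 and 580 in input Rosi, 208, 222 and 237 in polysome Veh, and 238, 211 and 231 in polysome Rosi. All polysome libraries lay below all input libraries, with a log2 fold change of -1.29 ± 0.09 in Veh (adjusted p = 0.000114) and -1.37 ± 0.08 in Rosi (adjusted p = 7.42e-05). The coding transcripts of Rpsa had a TPM of 998 to 1160 in input and of 278 to 382 in polysomes, and the member's share was 32.9 to 35.7% in input and 36.9 to 45.4% in polysomes. The Ftl1 member ENSMUST00000210106, of the ferritin light chain that stores iron, had 43.8 to 74.9 TPM in input and 3.59 to 9.91 in polysomes. Its log2 fold change was -2.79 ± 0.39 in Veh and -3.62 ± 0.38 in Rosi (adjusted p = 0.00152 and 0.0003). It was a minor isoform, at 0.231 to 0.525% of the sum with the coding transcripts, and did not stand apart from them (usage -0.10 in Veh and -0.56 in Rosi, not called).

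Lower members of secretory pathway genes behaved less alike with respect to their genes. Hspa5 encodes the chaperone BiP of the endoplasmic reticulum, and its member ENSMUST00000137145 had a TPM of 67.8 and 47.5 in input Veh, 69.5, 84.8 and 77.8 in input Rosi, 18.7, 26.9 and 21.4 in polysome Veh, and 21.2, 21.2 and 18 in polysome Rosi. The log2 fold change was -1.43 ± 0.21 in Veh and -1.90 ± 0.20 in Rosi (adjusted p = 0.00204 and 0.000285), and the share was 9.68 to 14% in input and 4.05 to 6.32% in polysomes. Uggt1, the glucosyltransferase that checks the folding of glycoproteins, had in ENSMUST00000174266 a major isoform with 66 to 70% of the sum in input and 45.8 to 61% in polysomes. Its TPM was 12 to 15 in input and 2.74 to 4.17 in polysomes (-1.85 ± 0.17 in Veh and -1.96 ± 0.16 in Rosi, adjusted p = 0.000251 and 0.000117). The Bmp1 member ENSMUST00000226246, of a procollagen-processing protease, had 4.04 to 5.32 TPM in input and 0.561 to 1.7 in polysomes (-2.22 ± 0.37 and -2.07 ± 0.34, adjusted p = 0.00345 and 0.00261). For all 3 members the fractions did not overlap.

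**Figure D3:**
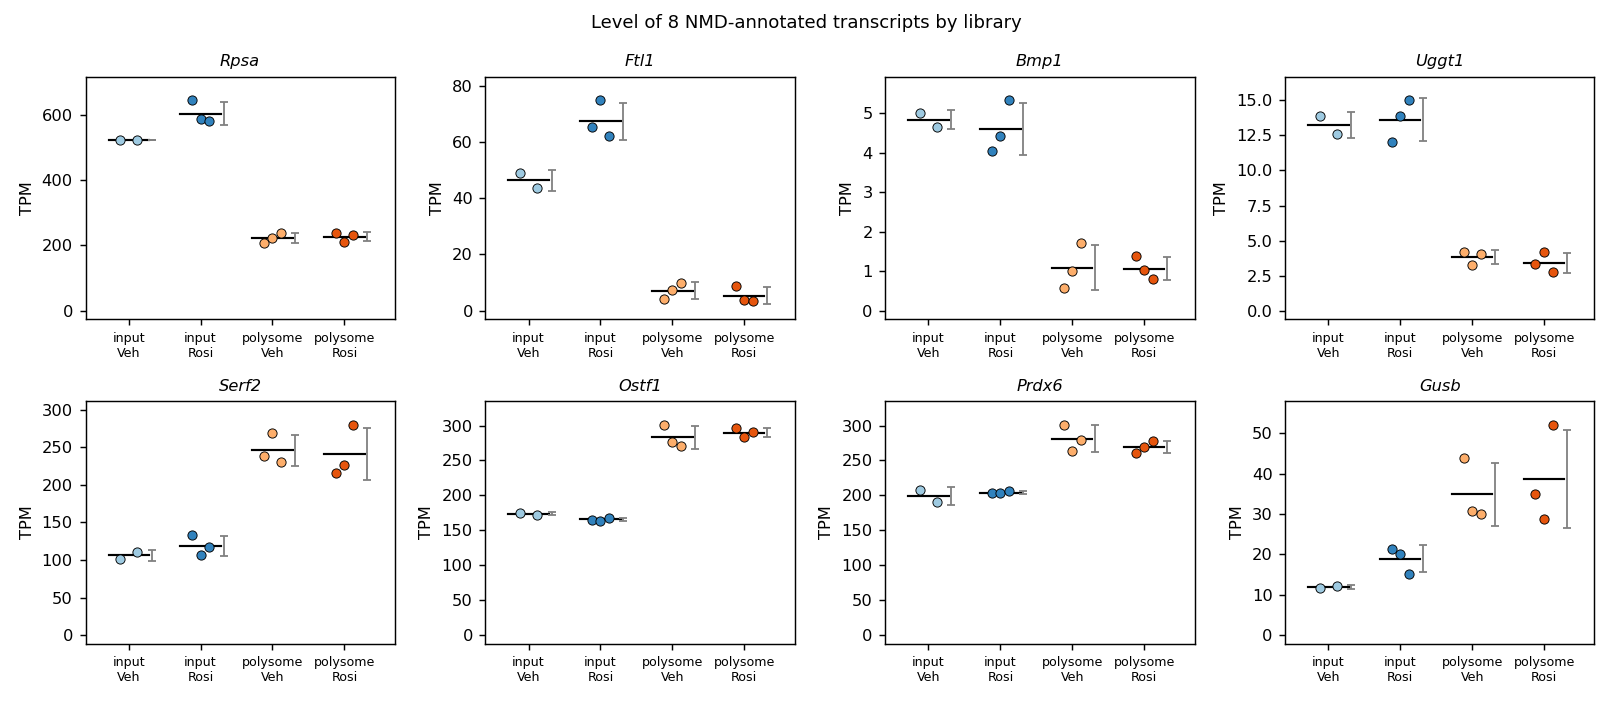
TPM of 8 NMD-annotated transcripts in each library (points, libraries; black line, mean; grey bar, SD). Rpsa, Ftl1, Bmp1 and Uggt1 are lower in all 6 polysome libraries than in all 5 input libraries, and Serf2, Ostf1, Prdx6 and Gusb are higher.

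Others of the 46 members called in both treatments, also named after their values were seen, come from genes of membrane traffic and the cytoskeleton. The Sec22b member ENSMUST00000130778, of a vesicle fusion protein between the endoplasmic reticulum and Golgi, was the major isoform of its gene in every library (58.4 to 68.6%), at 40 to 65.5 TPM in input and 99 to 111 in polysomes. The Flna member ENSMUST00000144429, of an actin-crosslinking protein, fell from 31.9 to 46.5 TPM to 15.2 to 22.9 (-1.13 ± 0.12 and -1.03 ± 0.11, adjusted p = 0.000476 and 0.000363). The Rosi calls were lost without input Rosi replicate 1 for Sec22b (0.96) and without polysome Rosi replicate 3 for Flna (-1.0), and the Veh call of Sec22b without input Veh replicate 2 (0.94).

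To set each member against the rest of its own gene, usage was tested as the difference between its log2 fold change and that of the other transcripts of the gene. Few members passed, and in simulated libraries this test also called transcripts that had not been changed, more often than its adjusted p allows, so single usage calls are weak. In Veh 6 of 2358 were higher and 0 lower (187 had an unadjusted p under 0.05), where 0.232% of all transcripts tested were called higher and 0.134% lower. In Rosi 13 were higher and 3 lower, against 0.25% and 0.152%. The median usage change of the members was 0.14 in Veh and 0.04 in Rosi. Of the called members, 3 of 6 in Veh and 11 of 16 in Rosi had no read in any library of a group, and 4 were called in both treatments, all higher. The 4 were members of Fbxo11, Gpi1, Gusb and Itgb1. The 6 calls in Veh became 3 without input Veh replicate 1, and the 16 in Rosi became 9 without polysome Rosi replicate 2 or input Rosi replicate 2, 10 without polysome Rosi replicate 3 and 7 without input Rosi replicate 3.

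Gpi1, the glycolytic enzyme glucose-6-phosphate isomerase, had a usage call without a group at 0 reads. ENSMUST00000205870 made up 11.4 and 17% of the sum with the coding transcripts in input Veh, 21.6, 14.8 and 11.7% in input Rosi, 53.5, 48.9 and 37% in polysome Veh, and 41.1, 41.1 and 52.2% in polysome Rosi. The fractions did not overlap, and usage rose by 2.13 ± 0.35 in Veh (adjusted p = 0.00117) and 1.94 ± 0.30 in Rosi (adjusted p = 0.000373) on the log2 scale. The level of the member itself was not called (0.81 and 0.75), while the TPM of the coding transcripts was 420 to 524 in input and 143 to 217 in polysomes. The Veh call was lost without input Veh replicate 1 (1.87, adjusted p = 0.157), and both calls were lost with limma on the log2 ratio to coding reads (adjusted p = 0.0648 and 0.0517).

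The member of Gusb, the lysosomal enzyme beta-glucuronidase, had no bases or junctions that the coding transcripts lack, so its level rests entirely on how reads were divided. Its share was 5.41 and 5.73% in input Veh, 11.1, 10.4 and 7.04% in input Rosi, 26, 16.2 and 16% in polysome Veh, and 19.9, 18 and 30.8% in polysome Rosi. Usage rose by 1.86 ± 0.21 in Veh and 1.36 ± 0.18 in Rosi (adjusted p = 7.44e-06 and 0.000121), with the Rosi call lost without polysome Rosi replicate 3 (1.05, adjusted p = 0.0709) and both lost with limma (adjusted p = 0.148 and 0.182). Itgb1 encodes the integrin beta 1 subunit. Its member stayed a minor isoform, at 0.403 to 0.792% in input and 1.04 to 5.35% in polysomes (2.41 ± 0.51 in Veh and 2.22 ± 0.43 in Rosi, adjusted p = 0.0254 and 0.0114). These were the least stable of the shared calls, lost in Veh without polysome Veh replicate 2 or 3 or without either input Veh library (adjusted p = 0.122 to 0.405), and in Rosi without polysome Rosi replicate 2 or input Rosi replicate 1 or 3 (adjusted p = 0.0709 to 0.164). Both were lost with limma too (adjusted p = 0.306 and 0.253).

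The Fbxo11 member, of a ubiquitin ligase subunit, was listed at 0 reads in all 5 input libraries and at 7.54, 7.28 and 6.18 TPM in polysome Veh and 7.73, 6.89 and 6.04 in polysome Rosi. Against a floor of 3 reads over the input group this was at least 119-fold higher in Veh and at least 220-fold higher in Rosi (usage adjusted p = 3.78e-05 and 2.02e-07). It differs from the coding transcripts by 1 junction. A value of 0 is an estimate, since Salmon can give all shared reads to other isoforms, and the floor covers counting error only.

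The same pattern of a group at 0 was seen for members of Tcf12, a transcription factor of the bHLH family, and Zfp451, a SUMO ligase. The Tcf12 member ENSMUST00000184867 made up 14.2 and 34.3% of the sum in input Veh, 0% in all 3 input Rosi libraries, 38.4, 47.1 and 41.5% in polysome Veh, and 42.6, 41.9 and 47.9% in polysome Rosi. Against the floor of 3 reads over the group, polysome Rosi was at least 714-fold above input Rosi (usage adjusted p = 3.08e-09). In Veh, where input had reads, the log2 fold change of its level was 1.4. The folds against this floor, here and for the members below, do not cover the division of reads among isoforms. They are thus not bounds on the size if that division is wrong. The Zfp451 member ENSMUST00000139143 was at 37.9 and 27.5% in input Veh, at 0% in input Rosi and at 17.2 to 63.2% in the 6 polysome libraries (at least 171-fold in Rosi, usage adjusted p = 1.67e-06). Members of Tmem161b and Osbpl9 were also at 0 in input Rosi only among the groups, with at least 109-fold and 669-fold more in polysome Rosi, although the Osbpl9 member was at 0 in input Veh replicate 1 and polysome Veh replicate 3 too. Its call was lost without polysome Rosi replicate 2 (adjusted p = 0.0542) or input Rosi replicate 2 or 3 (0.0711 and 0.0883). In the other direction the Tep1 member ENSMUST00000226430 was at 3.39 to 4.38 TPM in input Rosi and at 0 in polysome Rosi, at least 378-fold lower (usage adjusted p = 0.0115). That call was lost without any 1 of the polysome Rosi libraries or without input Rosi replicate 2 or 3 (adjusted p = 0.0523 to 0.0709).

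**Figure D4:**
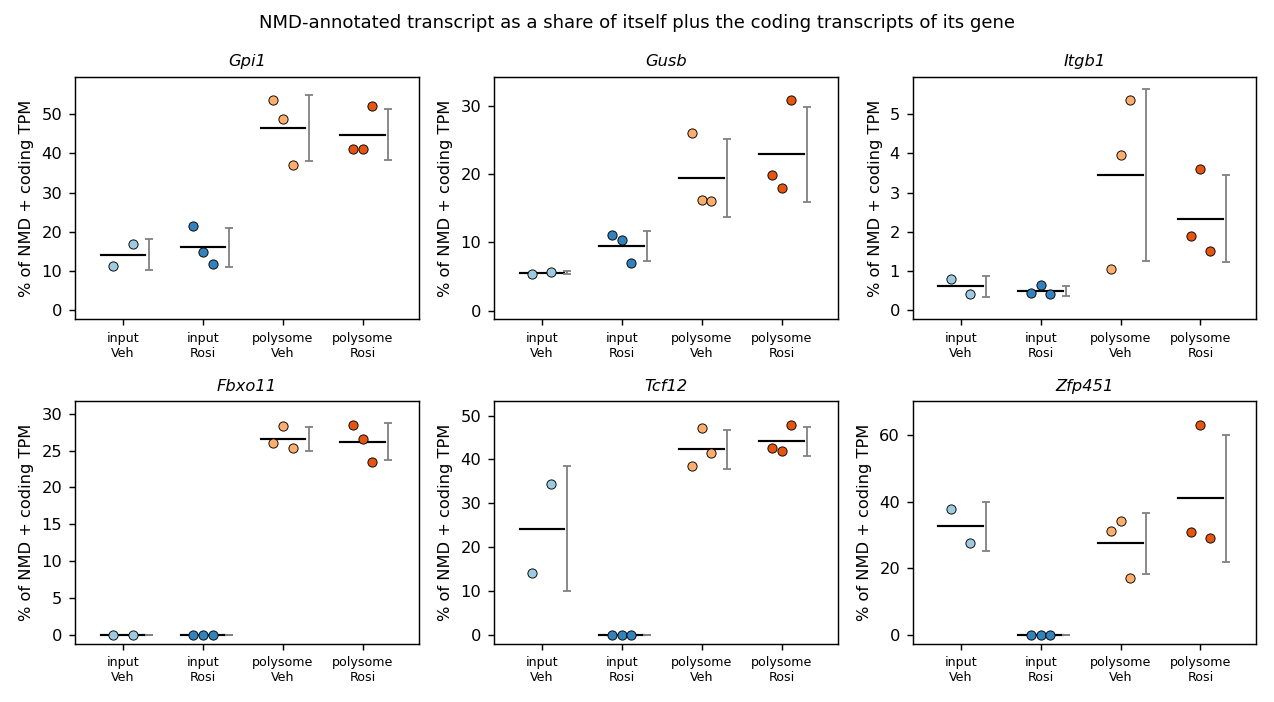
Share of the NMD-annotated transcript in the TPM of itself and the coding transcripts of its gene, for 6 genes (points, libraries; black line, mean; grey bar, SD). The share is higher in all polysome than in all input libraries for Gpi1, Gusb, Itgb1 and Fbxo11, and Tcf12 and Zfp451 are at 0 in the 3 input Rosi libraries.

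Few members were called for Rosi. Input and polysome libraries were each fitted on their own, with calls at a log2 fold change beyond 0.2 in either direction. In input 0 of 1880 members were called by edgeR (108 had an unadjusted p under 0.05, and DESeq2 called 63), where 0.00983% of all transcripts were called. In polysomes 1 of 1678 was called (56 had an unadjusted p under 0.05), against 0.0609% of all transcripts.

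The called member was that of Pnpla2, the adipose triglyceride lipase that starts the breakdown of stored fat. ENSMUST00000026583 had a TPM of 19, 24.3 and 27.1 in polysome Veh and 66.2, 62 and 52.8 in polysome Rosi (log2 fold change 1.36 ± 0.12, adjusted p = 0.0465). In input it was 33.4 and 30.2 in Veh and 83.6, 66.1 and 78.4 in Rosi, a difference of 1.21 ± 0.12 that was not called (adjusted p = 0.176). The treatments did not overlap in either fraction. It was the major isoform of its gene in every library, at 58 to 69.3% of the sum with the coding transcripts, so it followed its gene. The polysome call was lost without any 1 of the 6 polysome libraries (adjusted p = 0.0718 to 0.272).

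The member of Angptl4, a secreted inhibitor of lipoprotein lipase, had the largest rise of the members named for adipocyte and lipid genes. ENSMUST00000173869 had 13.6 and 14.7 TPM in input Veh and 54.8, 66.4 and 58.2 in input Rosi (2.03 ± 0.13, adjusted p = 0.0863). In polysomes it had 4.59, 7.93 and 10.9 TPM in Veh and 39.1, 37.1 and 29.6 in Rosi (2.17 ± 0.28, adjusted p = 0.134). Neither was called, but both sets of libraries were apart, and the input difference was called with DESeq2, no count filter, a filter of 10 reads, all 12 libraries or 1 fit of all groups (adjusted p of 0.0387 or less in each). Its share was 68 to 85.3% throughout. Abhd5, the activator of the lipase that Pnpla2 encodes, had a member at 10.5 and 13.3 TPM in input Veh and 22.3, 19.3 and 21.3 in input Rosi, which was not called.

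The 20 members of the adipocyte and lipid list, in 15 of its 70 genes, made up 6.39% ± 0.469 (SD, n = 2) of the reads of these genes in input Veh, 11.8% ± 0.273 (n = 3) in input Rosi, 4.99% ± 0.495 (n = 3) in polysome Veh and 9.63% ± 0.869 (n = 3) in polysome Rosi. The median log2 fold change of Rosi over Veh was 1.08 over the 6 members tested in input and 1.32 over the 7 tested in polysomes, with the medians over all members at 0.06 and -0.00. The summed adipocyte markers moved with these values, at 889 to 1100 CPM in input Rosi against 279 to 288 in input Veh, and their part in the difference was not tested. In usage with Rosi, 0 of the 6 members tested in input and 0 of the 7 in polysomes were called. Their median usage changes were 0.23 and 0.05. A share summed over genes can also rise where genes with a large member share rise, without a change within any gene.

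Usage changed with Rosi in 2 of 1822 members in input (0.116% of all transcripts tested were called) and in 2 of 1627 in polysomes (0.157%), each with a group at 0 reads. In input these were the Zfp451 member, which was lower in Rosi (adjusted p = 0.00928), and that of Atp2c1, a Golgi calcium pump, which was at 0 in input Veh and at 1.13, 3.41 and 3.9 TPM in input Rosi (adjusted p = 0.0139). In polysomes they were members of Stx5a, a Golgi fusion protein, and Fam133b, both at 0 in the 3 polysome Rosi libraries and at 1.31 to 3.23 and 0.682 to 1.26 TPM in polysome Veh (adjusted p = 0.00815 and 0.048). In polysomes the calls that took their place were higher in Rosi without polysome Veh replicate 2 (2 calls) or polysome Rosi replicate 1 (1) or 2 (3). All of these calls were lost on leaving out single libraries: input Rosi replicate 2 for Zfp451 (adjusted p = 0.0569), either input Veh library or input Rosi replicate 2 or 3 for Atp2c1 (0.0567 to 0.0893), polysome Veh replicate 1 or 2 or any polysome Rosi library for Stx5a (0.054 to 0.146), and any polysome library for Fam133b (0.185 to 0.509).

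Translation efficiency, the interaction of fraction and treatment, was called for 1 member in each direction of 2418 (126 had an unadjusted p under 0.05), where 0.0258% of all transcripts were called. These were Tcf12, higher in Rosi (adjusted p = 0.00878), and Epha4, lower in Rosi (adjusted p = 0.007). Both rest on a group without reads. The member of Epha4, an ephrin receptor, had 0 TPM in input Veh, 0.625 to 0.879 in input Rosi and 0.641 to 0.946 in the 6 polysome libraries, and it has no sequence that sets it apart from the coding transcripts.

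Genes of splicing regulators hold many of the known poison exons. Of 32 listed SR and related splicing genes, 30 had members, 57 in all, of which 24 had a mean TPM of at least 1. Their share of the reads of these genes was 5.28% in input Veh, 6.06% in input Rosi, 6.63% in polysome Veh and 6.44% in polysome Rosi. Of the 32 members tested between fractions 2 were called higher and 1 lower in Veh and 3 higher and 0 lower in Rosi, with medians of 0.29 and 0.20. Over all transcripts 2.56% were called higher and 3.76% lower in Veh, and 4.28% and 3.35% in Rosi. Whether this list or those below differ from these shares was not tested, and few members were tested in each. The poison exon member of Srsf3, an SR protein that includes this exon when abundant, had a TPM of 10.5 and 9.08 in input Veh, 13.5, 16.5 and 14.9 in input Rosi, 15.8, 17.9 and 17.5 in polysome Veh, and 16.9, 12.9 and 15.1 in polysome Rosi. Its log2 fold change was 0.75 ± 0.12 in Veh, below the threshold on size, and 0.04 in Rosi. That of Tra2b, a splicing activator, had 6.7 to 9.7 TPM in input and 12.2 to 19.2 in polysomes, with log2 fold changes of 0.92 and 0.99 (adjusted p = 0.0389 and 0.0131), also below the threshold. The Srsf6 member ENSMUST00000017065 was the most abundant of the list, at 20.1 to 36.3 TPM in input and 16.7 to 26.8 in polysomes, and was not called.

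The called members of the splicing list were those of Rbm39, Luc7l, U2af2, Clk1 and Tra2a. Rbm39, a splicing factor related to U2AF, was the only 1 called in both treatments. ENSMUST00000155837 had a TPM of 5.04 and 4.24 in input Veh, 5.48, 5.51 and 2.51 in input Rosi, 11.9, 17.9 and 18.3 in polysome Veh, and 13, 13.5 and 14.7 in polysome Rosi (1.73 ± 0.35 and 1.64 ± 0.30, adjusted p = 0.00883 and 0.00427). The Veh call was lost without either input Veh library (adjusted p = 0.059 and 0.077). Clk1, a kinase of SR proteins, and Tra2a were called higher in Rosi (1.17 ± 0.21 and 1.62 ± 0.31, adjusted p = 0.00434 and 0.00571). Luc7l was called higher in Veh (adjusted p = 0.0147) and U2af2, which binds the polypyrimidine tract, lower in Veh (-1.40 ± 0.39, adjusted p = 0.0359). The Luc7l call was lost without either input Veh library, and the U2af2 call without any 1 of 7 libraries, which were the 3 polysome Veh and both input Veh libraries, polysome Rosi replicate 1 and input Rosi replicate 2 (adjusted p = 0.0512 to 0.152).

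The hnRNP and other RNA-binding protein list had 61 members in 25 of 42 genes, at 9.15% of reads in input Veh, 10.1% in input Rosi, 9.16% in polysome Veh and 8.95% in polysome Rosi. Of 34 members tested, 1 was called higher and 0 lower in Veh, and 3 higher and 1 lower in Rosi, with medians of 0.55 and 0.41. The shares over all transcripts were 2.56% higher and 3.76% lower in Veh, and 4.28% and 3.35% in Rosi. The Syncrip member ENSMUST00000172828, of hnRNP Q, was called in both treatments, at 8.38 and 2.48 TPM in input Veh, 6.63, 8.48 and 10.9 in input Rosi and 19.3 to 24.3 in the 6 polysome libraries (1.98 ± 0.41 and 1.42 ± 0.34, adjusted p = 0.00977 and 0.0172). Its Rosi call was lost without polysome Rosi replicate 3 or input Rosi replicate 1 or 2 (adjusted p = 0.065 to 0.071). The Hnrnph3 member ENSMUST00000140743 rose in Rosi from 2.76, 2.72 and 2.99 TPM in input to 8.76, 8.8 and 9.57 in polysomes (1.73 ± 0.18, adjusted p = 0.000284). For Tardbp, which encodes TDP-43 and is known for regulating its own mRNA, ENSMUST00000190696 was called in Rosi (1.05 ± 0.14, adjusted p = 0.000916), and the change was under 1 without polysome Rosi replicate 3 (0.99) or input Rosi replicate 1 or 3 (0.97 and 0.98). The Ptbp1 member was called lower in Rosi (-2.36 ± 0.73, adjusted p = 0.0496), but not when any of 9 single libraries was left out (adjusted p = 0.0524 to 0.136). Only without polysome Veh replicate 1 or polysome Rosi replicate 2 did that call hold. The member of Hnrnpu was the most abundant of the list, at 43.3 to 66.4 TPM in input and 44.4 to 50.8 in polysomes, and was not called.

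The share of members summed over the ribosomal protein genes was lower in polysomes, while their usage medians within genes were not. The list had 24 members in 18 of 85 genes, and their share of the reads of these genes was 8.61% in input Veh and 8.68% in input Rosi, against 6.71% in polysome Veh and 6.50% in polysome Rosi. Such a sum can also fall where genes with a large member share fall, without a change within any gene. Of the 18 members tested 1 had a log2 fold change above 0 in Veh and 3 in Rosi, with medians of -0.55 and -0.35. The only call was that of Rpsa, which was lower in both, where 3.76% of all transcripts were called lower in Veh and 3.35% in Rosi. The usage medians of these members were 0.01 and 0.03, with 10 of 18 above 0 in each treatment. The translation factor list had 22 members in 11 of 65 genes. Of the 13 tested, 1 was called higher and 0 lower in Veh, and 2 higher and 2 lower in Rosi. The shares over all transcripts were 2.56% higher and 3.76% lower in Veh, and 4.28% and 3.35% in Rosi. Eif4a2, a helicase of the cap-binding complex, had 3 called members, although those that rose in Rosi (ENSMUST00000123413 and ENSMUST00000131871) have no sequence of their own. TPM of the former was 27.4, 33.7 and 29.5 in input Rosi and 61.8, 60.3 and 62.6 in polysome Rosi (1.07 ± 0.12, adjusted p = 0.000407). The latter was under 1 without input Rosi replicate 1 (0.99) or 3 (0.87). The third, ENSMUST00000147117, was higher in polysome Veh (2.49 ± 0.48, adjusted p = 0.00714), a call lost without either input Veh library (adjusted p = 0.0511 and 0.0698). The Eif4g1 member, of the scaffold of that complex, fell in Rosi from 54.6, 52.1 and 40.9 TPM to 26.4, 19.5 and 16.6 (-1.21 ± 0.22, adjusted p = 0.00436), as did that of Pabpc4, a cytoplasmic poly(A)-binding protein (-2.18 ± 0.41, adjusted p = 0.00512).

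The mitochondrial respiratory list had 27 members in 22 of 96 genes, at 2.91% and 2.87% of reads in input Veh and Rosi and 3.77% and 3.81% in polysomes. None of its 14 tested members was called. Between fractions, 2.56% of all transcripts were called higher and 3.76% lower in Veh, and 4.28% and 3.35% in Rosi. The matrix and progenitor list had 11 members in 6 of 43 genes, at 5.39% and 5.65% in input and 7.83% and 8.01% in polysomes. Of 7 tested only that of Fn1 (fibronectin) was called, lower in polysome Rosi (-1.62 ± 0.38, adjusted p = 0.0143). Its TPM was 80, 81.7 and 86.6 in input Rosi and spread over 42.7, 26.2 and 10.3 in polysome Rosi. The 7 had median log2 fold changes of -0.04 in Veh and -1.38 in Rosi, with 3 and 2 above 0. Their usage medians were 0.68 and 0.27, with 6 and 5 above 0. The macrophage list had 6 members in 6 of 40 genes, with shares of 0.141 to 0.224% in the 4 group means, and none of the 4 tested was called.

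The genes of the NMD machinery itself were compared as sums over their transcripts. All 27 genes of the NMD factor and exon junction complex lists were tested. Between fractions 1 was called higher and 3 lower in Veh, where 2.99% of all genes were called higher and 6.68% lower. In Rosi 5 were called higher and 4 lower, against 6.49% and 4.86% of all genes. The median log2 fold change was -0.06 in Veh and -0.02 in Rosi for the 18 NMD factors and of 0.55 and 0.44 for the 11 exon junction complex genes. Upf3a and Upf3b are in both lists.

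Upf1, the RNA helicase at the centre of the pathway, had 62.9 and 74.9 CPM in input Veh, 67.3, 58.9 and 59.7 in input Rosi, 24.1, 30.7 and 24.6 in polysome Veh, and 26.8, 26.8 and 25.8 in polysome Rosi. It was lower in all polysome libraries (-1.38 ± 0.12 in Veh and -1.23 ± 0.11 in Rosi, adjusted p = 9.72e-07 and 8.27e-07). Nbas (-1.24 and -1.30) and Smg9 (-1.07 and -1.01), a cofactor of the SMG1 kinase that phosphorylates UPF1, were called lower in both treatments. In Rosi Pabpc1, a poly(A)-binding protein, was also lower (-1.56 ± 0.09, adjusted p = 4.39e-08). Smg9 lost its Veh call without polysome Veh replicate 1 (-0.90) or input Veh replicate 2 (-0.79) and its Rosi call without polysome Rosi replicate 2 or 3 or input Rosi replicate 1 (-0.99 to -0.89). Rbm8a, which encodes the Y14 core protein of the exon junction complex, was higher in both (1.10 and 1.13, adjusted p = 4.65e-06 and 8.43e-07). Its partners Magoh (1.02) and Magohb (1.15) were called higher in Rosi, as were Upf2 (1.21 ± 0.17), the bridge between UPF1 and the complex, and Pnrc2 (1.05), a decapping adaptor. Magoh fell under the threshold without polysome Rosi replicate 3 (0.94) or input Rosi replicate 3 (0.97). Smg1, Gspt1 and Pym1 had log2 fold changes of 0.00 to 0.17.

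With Rosi, Pabpc1 was the only gene of the 27 called in input, where 1.34% of all genes were called. Its product opposes NMD at normal stop codons. It had 813 and 676 CPM in input Veh and 1040, 1010 and 1010 in input Rosi (0.52 ± 0.09, adjusted p = 0.0162), and the call was lost without input Veh replicate 2 (0.39, adjusted p = 0.244) or input Rosi replicate 2 (adjusted p = 0.0512). In polysomes it had 462, 445 and 440 CPM in Veh and 343, 362 and 327 in Rosi, which did not overlap but was not called (-0.39, adjusted p = 0.159). None of the 27 was called in polysomes (0.655% of all genes were called, and 1 of the 27 had an unadjusted p under 0.05) or for translation efficiency (0.0% of all genes were called, and 3 had an unadjusted p under 0.05).

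**Figure D5:**
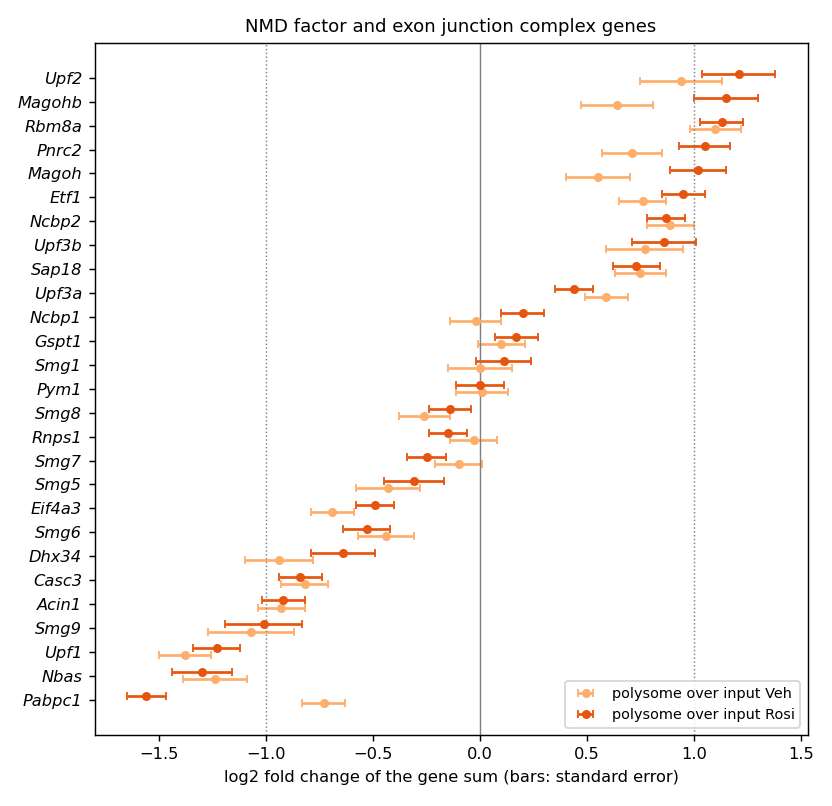
Log2 fold change of polysome over input (bars, SE) for the summed transcripts of 27 genes of the NMD machinery and the exon junction complex, in Veh and Rosi. Dotted lines mark a log2 fold change of 1 in either direction, beyond which Upf1, Nbas and Smg9 lie on the lower side and Rbm8a on the higher side in both treatments.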

How the data were processed

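Poly(A) RNA of input and polysome samples had been sequenced, and per the labels the authors used bcl2fastq 2.17, FastQC, Salmon and DESeq2 on mm10; versions of the last 3 are not given in the sources used here. The authors deposited, for each transcript of each library, an estimated count and a TPM (scaled for effective length and library size). Salmon divides reads among isoforms by likelihood; no inferential replicates and no strand setting were at hand. Titles that name the tissue alone were taken as polysome libraries, and the 4 days of the protocols were kept over the 3 of the design text.

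Estimated counts were rounded and tested with edgeR 4.0.16 in R 4.3.3 (filterByExpr, TMM, quasi-likelihood F test, diffSpliceDGE for usage, two-sided, Benjamini-Hochberg over all features). Each SE was obtained by dividing the size of the log2 fold change by the root of F. Transcript types, coding sequences and junctions came from GENCODE M21, whose version matched for 7132 members; 1162 listed transcripts had no match. Depth was 17.4 to 24.0 M estimated reads per library. The common biological coefficient of variation was 0.654 for transcripts and 0.121 for genes, so transcript values are less precise. The tests were run on simulated data: level and gene tests gave the right sign to the differences they called, the level test missed most of those set, and the usage test recovered few and called unchanged transcripts more often than its adjusted p allows. Libraries are called biological replicates in the labels; spread among them is all that the p-values measure.

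Members named were the 10 of highest mean TPM, then among called members whose groups did not overlap and whose mean log2 CPM reached 1 the 6 highest and 6 lowest for usage and 4 and 4 for level, up to 4 on each side for Rosi and translation efficiency, up to 4 of highest TPM per gene list, and NMD machinery genes of smallest p; Gm and Rik genes were counted but not named. Called members of the lists and members called in both treatments were added after their values were seen. Members and lists were chosen with earlier results of these data known. Alternatives were DESeq2 1.42.0, other scaling factors, count filters, each library left out, replicate blocks, all 12 libraries, limma 3.58.1 on log2(TPM + 1), 1 fit of all groups and only distinguishable members. A few members that this rule names are not reported here.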

Additional observations from a re-analysis of the deposited data

Results flagged for a closer look

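The polysome over input change of 2 members differed between Rosi and Veh by the interaction test of edgeR. For Tcf12 (ENSMUST00000184867) the difference of the log2 fold changes was 10.96 (adjusted p = 0.00878), and for Epha4 (ENSMUST00000188952) it was -9.36 (adjusted p = 0.007). Both values come from fits with a group at 0 reads, input Rosi for Tcf12 and input Veh for Epha4, and are not bounds on the size. Both calls were lost with the replicate number as a block (adjusted p = 0.125 and 0.117), and that of Tcf12 with limma (2.16, adjusted p = 0.0511).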

How the results depend on the processing

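No single member or gene followed, and no share, reversed its direction under any alternative, but the 2 usage calls with Rosi in polysomes, both lower, gave way to 2 higher calls without polysome Veh replicate 2, to 1 without polysome Rosi replicate 1 and to 3 without polysome Rosi replicate 2. With DESeq2 the calls between fractions numbered 189 in Veh and 235 in Rosi (83 and 136 with edgeR), those of Rosi over Veh 63 in input and 12 in polysomes (0 and 1), and those of translation efficiency 28 (2). With all 12 libraries, and so the identical input Veh files counted singly, the fraction calls in Veh numbered 146, usage in Veh 23, Rosi over Veh in input 14 for level and 18 for usage, and translation efficiency 5. A filter of 10 reads gave usage calls of 15 (Veh), 25 (Rosi), 18 (Rosi over Veh, input) and 9 (polysome), against 6, 16, 2 and 2, and 1 level call for Rosi in input. Without a count filter, translation efficiency had 4 calls, and Rosi over Veh 8 in input and 2 in polysomes. In 1 fit of all 4 groups these were 7 and 2. With limma usage had 14 calls in Veh, 9 for Rosi in input and 5 in polysomes, translation efficiency 1, and Rosi in polysomes 0. With only distinguishable members usage had 4 calls in Veh. The difference in same-gene share, 0.785 percentage points in Veh and 0.694 in Rosi, was 0.454 and 0.162 in TPM and 1.03 and 0.859 without the 10 top genes. DESeq2 called 1 NMD machinery gene for Rosi in polysomes, where edgeR called 0.

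Leaving out each library in turn gave 54 to 96 fraction calls in Veh (54 without polysome Veh replicate 1), 92 to 141 in Rosi, 2 to 5 for translation efficiency, 3 to 8 for usage in Veh (3 without input Veh replicate 1), 7 to 16 for usage in Rosi (7 without input Rosi replicate 3), 0 to 4 and 1 to 3 for usage with Rosi in input and polysomes, 0 to 0 for level in polysomes, and 0 to 3 for NMD machinery genes in input.

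Deviations of libraries with the same replicate number correlated at -0.334 to 0.168 over 15 pairs (3 over 0.1). Those with different numbers correlated at -0.168 to 0.38 over 30 pairs. Input and polysome libraries of the same number and treatment gave 0.113 and 0.168 in Veh, and -0.0773, -0.0127 and -0.109 in Rosi. Whether the identical input Veh file belongs to replicate 2 or 3 is unknown, and it was taken as 2 here and in the replicate block. The deviations of the 2 input Veh libraries mirror each other, so their pairs are not independent. In the paper, input was total RNA taken before fractionation, so input and polysome libraries may share cultures. With 2 or 3 libraries per group this check can neither show nor exclude such pairing. With the replicate block the fraction calls in Veh numbered 51, usage calls 6 in Rosi, and translation efficiency, level with Rosi in polysomes and usage with Rosi in input and polysomes had 0. Of 153 single results followed, 77 kept their call under all alternatives run for them, 74 lost it in at least 1 and 2 gained it. The spread of transcript estimates and the division of reads among isoforms limit what these libraries show, and members with few reads most.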
